A study of Mus musculus with 15 samples.

Results

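Liver transcriptomes of 7 male C57BL6J mice given diethylnitrosamine and a high fat diet (DEN/HFD) were compared with those of 8 male mice kept on chow, with treatment by the compound MCOPPB as a term of the model. All 15 libraries of the series entered, 1 per animal, and 11568 of 54281 genes were expressed highly enough to be tested. Diethylnitrosamine is a carcinogen that liver cells convert to a DNA alkylating agent, and MCOPPB is an agonist of the nociceptin receptor. Per the labels, DEN/HFD mice received 25 mg/kg DEN at 2 weeks of age and then, from week 6, a diet with 60% of its energy from lard for 32 weeks, whereas chow mice received the vehicle and stayed on chow. Within each diet, mice were injected intraperitoneally with saline or with 5 mg/kg MCOPPB on 5 consecutive days followed by 2 days without injection, for 3 cycles (21 days). Of the chow mice 3 received saline and 5 MCOPPB, of the DEN/HFD mice 4 received saline and 3 MCOPPB, and all were aged 9.5 months. No group received DEN alone or the high fat diet alone, so the carcinogen and the diet cannot be told apart.

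A high fat diet loads hepatocytes with triglyceride, which is stored in lipid droplets coated by perilipins and by proteins of the CIDE family. In this setting, liver macrophages take up lipid and present antigen on MHC class II molecules, and stellate cells lay down fibrillar collagen. An early dose of DEN mutates hepatocytes, and a fatty diet is known to hasten the tumours that follow in mice.

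The depth was estimated at 9320000 to 18700000 assigned reads per library, and albumin (Alb), the defining transcript of hepatocytes, reached 1192000 to 3303000 normalised counts. Levels below are normalised counts, obtained by inverting the deposited log2 values, and differences are on the deposited log2 scale, which compresses changes of genes with few reads. Several features of the libraries moved with the groups. RNA integrity numbers (RIN, the first of 2 values in the labels) were 9.0 to 10.0 in chow and 8.4 to 9.2 in DEN/HFD livers, and 6 of 8 chow livers lay above every DEN/HFD liver. The second RIN value ranged from 8.9 to 9.6 in both diets. Mitochondrial transcripts took 14.9% to 31.0% of normalised counts in chow and 12.01% to 23.3% in DEN/HFD livers. Skeletal muscle transcripts summed to 4562 in chow saline 3 and 4403 in chow MCOPPB 4, against 3.84 to 284 in the other 13 libraries. DEN/HFD saline 4 stood apart from the other 6 DEN/HFD livers for many genes that differed between the diets, and values without it are given beside the results. It was singled out by its values for these genes, so adjusted p-values without it describe and do not test.

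Between the diets, limma called 153 genes at an adjusted p under 0.05 (Benjamini-Hochberg over 11568 genes, two-sided), which is 1.32% of those tested. Of these, 86 (0.743% of those tested) were higher and 67 (0.579%) were lower in DEN/HFD livers, and 1934 genes (16.7%) had an unadjusted p under 0.05. The count depended on single libraries. It was 460 (3.98%, with 2.41% of genes called higher) without DEN/HFD saline 4, 6 without DEN/HFD MCOPPB 3, 31 without DEN/HFD MCOPPB 2, and 45, 60 and 83 without DEN/HFD saline 1, 2 and 3. Leaving out chow saline 2 gave 79 calls and leaving out chow MCOPPB 1 gave 95, and the count lay between 104 and 165 when any of the other 7 libraries was left out. All 153 genes kept their direction in each of these 15 fits, with an unadjusted p under 0.05 in each. The genes were selected in the same livers, so this outcome was nearly fixed in advance and adds no support. With RIN as a covariate, no gene was called by limma and 1054 (9.11%) had an unadjusted p under 0.05. All 153 genes then kept their direction, and 115 of them kept an unadjusted p under 0.05. Since RIN moved with the diet, its share in the differences cannot be told apart from that of the diet by this fit.

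**Figure D1:**
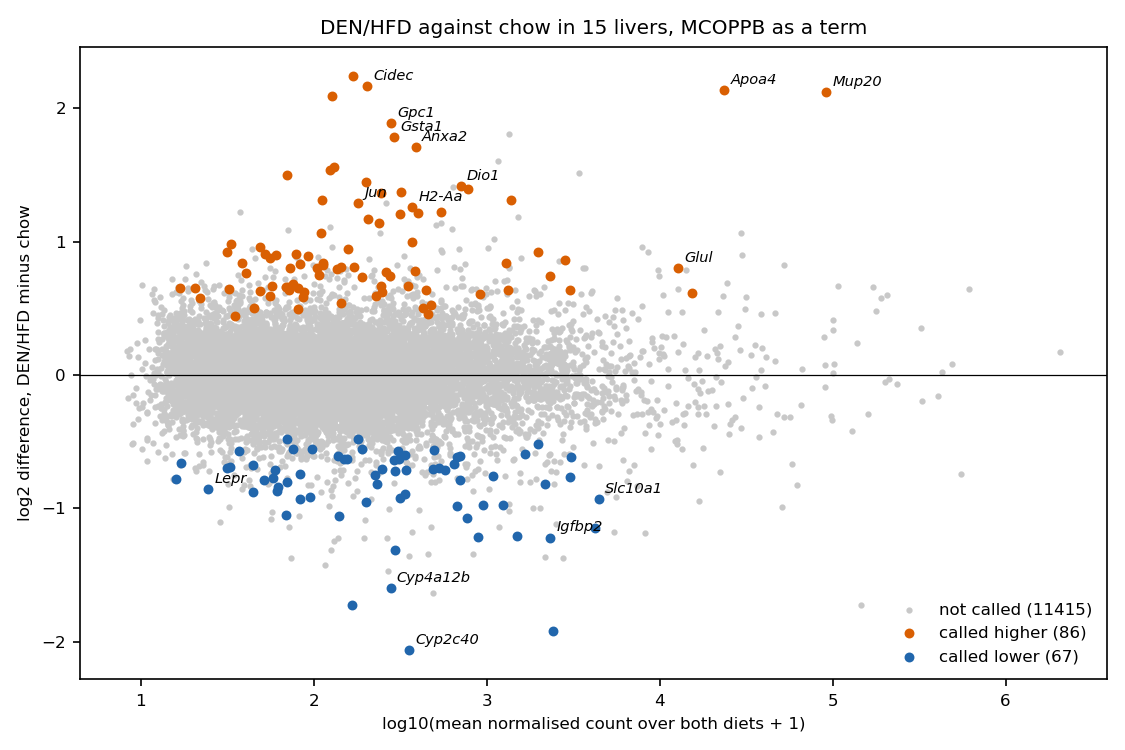
Log2 difference between DEN/HFD and chow livers (vertical axis) against the log10 of the mean normalised count over both diets (horizontal axis) for the 11568 tested genes, with 86 genes called higher in orange and 67 called lower in blue. The called genes span nearly the whole range of expression, up to Apoa4 and Mup20 among the most abundant transcripts.

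In 23 of the 153 called genes (0.199% of genes tested) the values of the 7 DEN/HFD and the 8 chow livers did not overlap, 16 of them (0.138%) higher and 7 (0.0605%) lower in DEN/HFD livers. The other 130 called genes overlapped in at least 1 pair of livers. These shares count genes that were both called and without overlap. The share without overlap over all tested genes, called or not, is not given here. Calls and overlap rest on the same livers, so the count describes and does not test. The smallest p belonged to Gpc1 (ENSMUSG00000034220.7, chr1:92831645-92860779, plus strand, GRCm38), which encodes glypican-1, a heparan sulfate proteoglycan anchored in the cell membrane. Its normalised counts were 159, 53.2 and 84.2 in chow saline, 62.6, 61.7, 56.5, 70.6 and 35.5 in chow MCOPPB, 564, 535, 728 and 261 in DEN/HFD saline and 464, 413 and 432 in DEN/HFD MCOPPB livers. Every DEN/HFD liver lay above the highest chow liver, and DEN/HFD saline 4 was the lowest of its diet. The log2 difference was 1.89 ± 0.17 (SE, 95% confidence interval 1.53 to 2.25; limma adjusted p = 1.96e-05), and it was 1.77 in saline and 1.99 in MCOPPB mice. The call held in all 15 fits that each left out 1 library, with a highest adjusted p of 0.000191, and the difference was 1.59 (limma adjusted p = 0.139) with RIN as a covariate.

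Dio1, the deiodinase that converts thyroxine to the active thyroid hormone, ranged from 174 to 520.1 (median 342) in chow and from 652 to 1302 (median 1105) in DEN/HFD livers, a log2 difference of 1.42 ± 0.17, limma adjusted p = 0.000821. Osbpl3, an oxysterol-binding protein family member that works at membrane contact sites, ranged from 14.5 to 82.5 (median 23.0) in chow and from 92.8 to 406 (median 154) in DEN/HFD livers, a difference of 1.31 ± 0.18, limma adjusted p = 0.00456. Tmem86a, an enzyme that cleaves lysoplasmalogens, ranged from 18.4 to 61.2 (median 47.8) in chow and from 67.6 to 165 (median 141) in DEN/HFD livers, a difference of 0.89 ± 0.13, limma adjusted p = 0.00779. These 3 genes, with Gpc1 and Jund, were the 5 of 153 whose call held in all 15 fits that left out 1 library. A further 23 genes kept it in 14 of the 15 fits, and 70 of the 153 kept it in fewer than 8.

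Among the other genes without overlap that were higher in DEN/HFD livers, Rsu1, an adaptor of focal adhesions, differed by 0.62 ± 0.10, limma adjusted p = 0.0163. Hist1h1c, a linker histone, differed by 0.74 ± 0.16 and Sap30, a subunit of the Sin3 histone deacetylase complex, by 0.51 ± 0.12. Upf1, the helicase of nonsense-mediated mRNA decay, differed by 0.61 ± 0.13, and Tpgs1, a subunit of the tubulin polyglutamylase complex, by 0.62 ± 0.13. B3gat3, the glucuronyltransferase that completes the linker on which heparan sulfate chains are built, rose from 165 ± 27.4 (SD, n = 8) to 292 ± 50.7 (SD, n = 7) normalised counts, a difference of 0.60 ± 0.12, limma adjusted p = 0.0216. The remaining rises without overlap were Jun and Btg2, described with the immediate early genes, and Pdzrn3, Rexo2, Bahd1 and Trir, whose differences lay between 0.44 and 0.50. Calls of Sap30 and Pdzrn3 held in 2 of the 15 fits that left out 1 library. Those of Rexo2, Trir and Upf1 held in 3, 5 and 7.

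The 7 falls without overlap lay between -0.86 and -0.51 on the log2 scale. Slco2a1, a prostaglandin transporter, ranged from 218 to 381 (median 334) in chow and from 89.3 to 217 (median 143) in DEN/HFD livers, a log2 difference of -0.82 ± 0.15, limma adjusted p = 0.0177. Lepr, the leptin receptor, ranged from 14.2 to 123 (median 22.9) in chow and from 0 to 12.5 (median 5.68) in DEN/HFD livers, a difference of -0.86 ± 0.19, limma adjusted p = 0.0333. Both diets were low for Lepr, and its call held in 5 of the 15 fits that left out 1 library. Reck, a membrane-anchored inhibitor of matrix metalloproteinases, was also low in both diets, from 12.7 to 64.3 (median 24.4) in chow and from 0.880 to 9.79 (median 3.13) in DEN/HFD livers, and differed by -0.66 ± 0.14, limma adjusted p = 0.0296. Upb1, the last enzyme of pyrimidine breakdown, ranged from 3504 to 4039 (median 3621) in chow and from 1668 to 3095 (median 2550) in DEN/HFD livers, a difference of -0.61 ± 0.13, limma adjusted p = 0.0249. Nfx1, a transcriptional regulator, differed by -0.72 ± 0.16, 2210418O10Rik by -0.57 ± 0.12 and Rpl3, a protein of the large ribosomal subunit, by -0.51 ± 0.12. The Rpl3 call held in 3 of the 15 fits that left out 1 library. Of 77 tested genes for cytosolic ribosomal proteins, Rpl3 was the only called gene, against 1.32% of all tested genes. Their median difference was -0.06 with 29 of 77 positive, and it turned to 0.19 with 60 positive when RIN was a covariate.

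**Figure D2:**
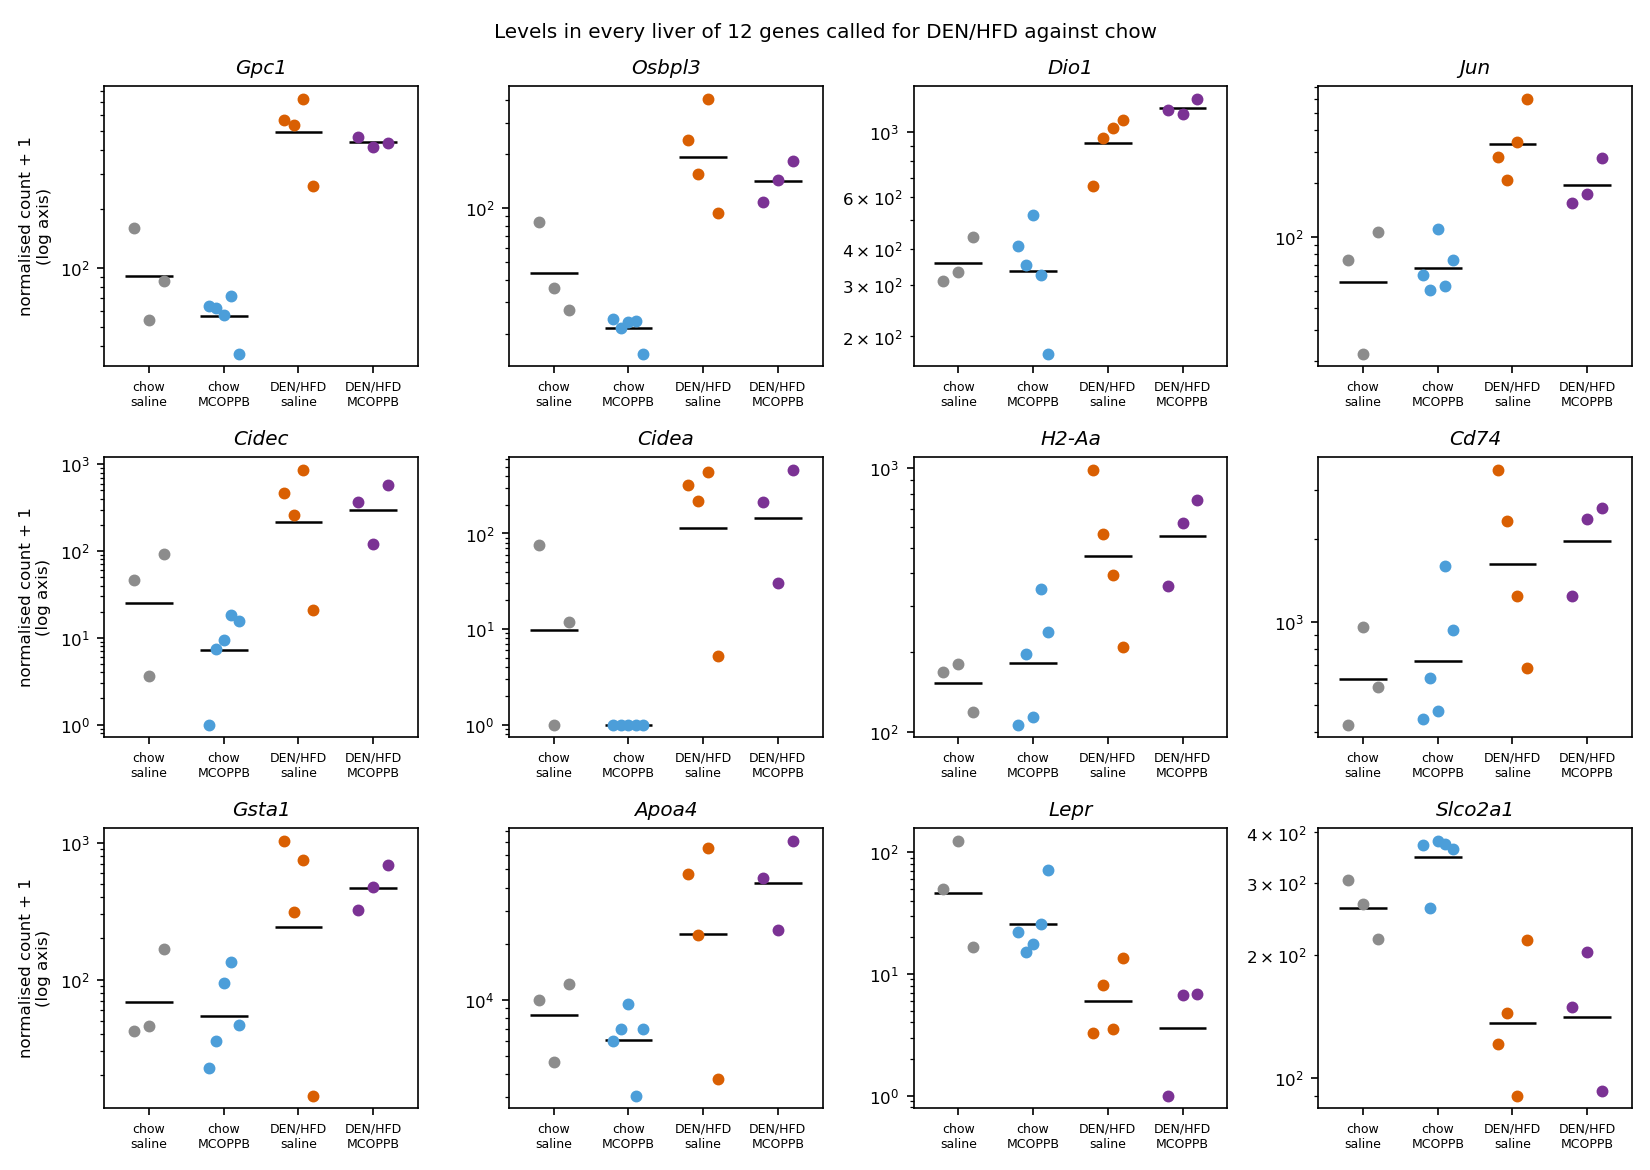
Normalised counts plus 1 (log axis) of 12 called genes in each of the 15 livers, by group; points are livers and horizontal lines are geometric means of a group. In Gpc1, Osbpl3, Dio1, Jun, Lepr and Slco2a1 the diets do not overlap, whereas in Cidec, Cidea, H2-Aa, Cd74, Gsta1 and Apoa4 the last DEN/HFD saline point (animal 4) lies among or below the chow points.

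Genes of lipid droplets were among the largest rises. Cidec, which fuses lipid droplets into larger ones, had normalised counts of 45.5, 2.64 and 92.6 in chow saline, 0, 6.41, 8.36, 17.4 and 14.6 in chow MCOPPB, 466, 261, 864 and 20.1 in DEN/HFD saline and 367, 118 and 578 in DEN/HFD MCOPPB livers. The 6 DEN/HFD livers other than saline 4 lay above all chow livers, while DEN/HFD saline 4 lay within the chow range. The log2 difference was 2.17 ± 0.41, limma adjusted p = 0.0177, and 2.50 without DEN/HFD saline 4. The call was lost without DEN/HFD MCOPPB 3 (adjusted p = 0.0719). Cidea, a related protein that hepatocytes make when steatotic, was listed at 0 in 6 of 8 chow livers and reached 75.6 in chow saline 1. In DEN/HFD livers it ranged from 4.25 in saline 4 to 464, a difference of 2.09 ± 0.42, limma adjusted p = 0.0233, and 2.42 without saline 4. Its call was lost without chow saline 2, DEN/HFD saline 1 or DEN/HFD MCOPPB 3, with a highest adjusted p of 0.0811. Fitm1, which helps triglyceride partition into droplets, ranged from 42.1 to 161 (median 99.6) in chow and from 147 to 369.6 (median 237) in DEN/HFD livers, a difference of 0.81 ± 0.16, limma adjusted p = 0.0225.

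Of 22 tested genes of lipid droplets and targets of PPARgamma, the lipid-sensing nuclear receptor of adipocytes, these 3 were called higher, none was called lower and 21 had a positive difference, with a median of 0.43. Over all tested genes, 0.743% were called higher, 49.6% of differences were positive and the median was -0.0016. Cd36, a fatty acid uptake receptor, averaged 908 ± 393 in chow and 2121 ± 870.4 in DEN/HFD livers, a difference of 1.19 ± 0.35, limma adjusted p = 0.0967, and 1.44 (adjusted p = 0.00713) without DEN/HFD saline 4. Pparg itself differed by 0.57 ± 0.18, limma adjusted p = 0.121, and by 0.70 (adjusted p = 0.0117) without that library. The library was chosen by its values, so the adjusted p-values without it describe and do not test. Plin2 and Plin4, droplet coat proteins, differed by 0.42 ± 0.28 and 0.89 ± 0.30 and were not called. Without DEN/HFD saline 4, 6 of the 22 were called, all higher, against 2.41% of all tested genes called higher in that fit. With RIN as a covariate 17 of 22 differences were positive (median 0.26). Apoa4, an apolipoprotein of triglyceride-rich particles named after its values were seen, averaged 7405 ± 2982 in chow and 39740 ± 24430 in DEN/HFD livers (SD, n = 8 and 7). Its difference was 2.14 ± 0.50, limma adjusted p = 0.0403, with a call in 3 of the 15 fits that left out 1 library, and Apoa4 was at 3738 in DEN/HFD saline 4.

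None of 24 tested lipogenic genes was called by limma in either direction, and 7 had a positive difference (median -0.17). Scd1, the desaturase that makes oleate, ranged from 20880 to 129300 (median 75720) in chow and from 33150 to 265900 (median 110300) in DEN/HFD livers, a difference of 0.08 ± 0.42, limma adjusted p = 0.955, whose sign changed with the library left out. Srebf1, a transcription factor that drives lipogenesis, differed by -0.59 ± 0.20, limma adjusted p = 0.137. Of 26 tested genes of cholesterol synthesis and its control, none was called higher and 5 had a positive difference (median -0.22). Among the 26, 2 were called lower, against 0.579% of all tested genes. They were Sqle, squalene epoxidase (-0.89 ± 0.21, limma adjusted p = 0.0455), and Stard4, a cholesterol transfer protein (-0.62 ± 0.14, limma adjusted p = 0.0333). These calls held in 5 (Sqle) and 4 (Stard4) of the 15 fits that left out 1 library. Neither was called with either RIN value, and 1 of the list was called with the replicate block. This block adds a term for each replicate number. Number 5 occurs only in chow MCOPPB, so the block takes that liver out of the diet difference.

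Genes of MHC class II, the molecules with which professional antigen-presenting cells show peptides to CD4+ T cells, were higher in DEN/HFD livers. Of 6 tested, 4 were called higher, against 0.743% of all tested genes, and all 6 had a positive difference (median 1.21). The promoters of class II genes share a Y box, an inverted CCAAT sequence bound by NF-Y, which lies close to the start of transcription. For 3 of the 4 listed genes with an entry in the RefSeq promoter table (GRCm38.p6), the 150 bases before the start hold the letters TGATTGG on either strand, as do 5.71% of the 32851 windows in the table. They are shown 5′ to 3′ on the gene's strand, with these letters in capitals, because 4 of the 6 tested class II genes were called. H2-Aa and H2-Eb1 were among the 4, and H2-DMb1 was not.
H2-Aa (chr17:34287824-34287973, minus strand): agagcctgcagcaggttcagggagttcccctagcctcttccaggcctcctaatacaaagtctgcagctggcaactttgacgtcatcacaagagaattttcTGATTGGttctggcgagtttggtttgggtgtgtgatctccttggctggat
H2-Eb1 (chr17:34305717-34305866, plus strand): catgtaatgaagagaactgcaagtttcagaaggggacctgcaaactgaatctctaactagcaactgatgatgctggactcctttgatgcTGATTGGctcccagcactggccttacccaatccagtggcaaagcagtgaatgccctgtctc
H2-DMb1 (chr17:34153041-34153190, plus strand): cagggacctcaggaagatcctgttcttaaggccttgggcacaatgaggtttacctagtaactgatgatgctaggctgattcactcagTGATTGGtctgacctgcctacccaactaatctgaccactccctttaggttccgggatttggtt

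H2-Aa, which encodes a class II alpha chain, had normalised counts of 168, 179.6 and 117 in chow saline, 105, 196, 113, 346 and 238 in chow MCOPPB, 987, 564, 394 and 209 in DEN/HFD saline and 358, 621 and 755 in DEN/HFD MCOPPB livers. DEN/HFD saline 4 lay within the chow range and the other 6 DEN/HFD livers above it. The log2 difference was 1.26 ± 0.25, limma adjusted p = 0.0203, and 1.40 without that library. H2-Ab1 and H2-Eb1, which encode class II beta chains, differed by 1.21 ± 0.21, limma adjusted p = 0.0163, and by 1.22 ± 0.22, limma adjusted p = 0.0177. H2-Ab1 ranged from 117 to 282 (median 129.7) in chow and from 239 to 858 (median 474) in DEN/HFD livers. Cd74, the invariant chain that guards the peptide groove, averaged 756 ± 399 in chow and 2001 ± 991 in DEN/HFD livers and differed by 1.31 ± 0.31, limma adjusted p = 0.0471, with a call in 3 of the 15 fits that left out 1 library. H2-DMa and H2-DMb1, which exchange the peptide, differed by 0.49 ± 0.14 and 0.58 ± 0.24 and were not called. The 4 calls fell to 2 when the replicate number was a block and to 0 with RIN as a covariate, where the median was 1.44 and all 6 were positive.

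All 24 tested marker genes of macrophages and monocytes had a positive difference (median 0.45), against 49.6% of all tested genes, and 3 were called higher, against 0.743%. The 3 calls fell to 1 with the replicate block, to 1 with the second RIN value and to 0 with the first, where all 24 differences stayed positive at a median of 0.64. Cd68, a lysosomal glycoprotein of macrophages, ranged from 19 to 111 (median 52.5) in chow and from 45.0 to 202 (median 159.6) in DEN/HFD livers, a difference of 0.80 ± 0.17, limma adjusted p = 0.0296. Fcgr3, an Fc receptor, differed by 0.66 ± 0.14, limma adjusted p = 0.0253, and Cd52, a surface peptide of leukocytes, by 0.90 ± 0.20, limma adjusted p = 0.0301. The summed level of the list was 1740, 1676, 1565, 2240, 2558, 2235, 3058 and 2957 in the 8 chow livers and 4603, 4535, 2963, 1933, 2870, 4366 and 4291 in the 7 DEN/HFD livers, the fourth of which is saline 4. Adgre1, the defining F4/80 antigen, ranged from 6.64 to 69.8 in chow and from 21.3 to 61.2 in DEN/HFD livers and differed by 0.21 ± 0.14, limma adjusted p = 0.473. In bulk liver, more cells of a type and more RNA per cell cannot be told apart.

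Of 18 tested Kupffer cell genes, C1qc, a subunit of complement C1q, was the only called gene (0.67 ± 0.16, limma adjusted p = 0.0441), against 1.32% of all tested genes. Its call held in 4 of the 15 fits that left out 1 library, and 13 of the 18 differences were positive. Clec4f, the lectin that defines Kupffer cells, ranged from 243 to 757 (median 356) in chow and from 238 to 924 (median 512) in DEN/HFD livers and was not called, and Timd4, a receptor of resident Kupffer cells, differed by -0.43 ± 0.20. None of 19 tested genes of lipid-associated macrophages was called by limma, although 16 were positive (median 0.49). Trem2, the lipid receptor that marks these cells, was at 0 to 12.5 in chow and 6.28 to 83.0 in DEN/HFD livers, a difference of 0.72 ± 0.20, limma adjusted p = 0.0856. Lgals3 (galectin-3), Gpnmb and Spp1 (osteopontin) differed by 0.83 ± 0.23, 0.65 ± 0.22 and 0.65 ± 0.23, also without a call. Without DEN/HFD saline 4, and as a description only, 8 of the 19 were called higher, Trem2 among them (limma adjusted p = 0.0389). In that fit 2.41% of all tested genes were called higher.

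Of 17 tested chemokines and cytokines, 3 were called higher, against 0.743% of all tested genes, and 13 differences were positive. The calls fell to 1 with the second RIN value and to 0 with the replicate block or with the first RIN value. Cxcl9, a T cell attractant induced by interferon gamma, ranged from 39.4 to 222 (median 82.6) in chow and from 111 to 553 (median 331) in DEN/HFD livers, a difference of 1.17 ± 0.26, limma adjusted p = 0.0309. Ccl5 (RANTES) was at 0 to 27.9 in chow and 8.40 to 133 in DEN/HFD livers, a difference of 0.98 ± 0.22, limma adjusted p = 0.0326. The Ccl5 call held in 5 of the 15 fits that left out 1 library. Cxcl14, another chemokine, differed by 0.58 ± 0.14, limma adjusted p = 0.0484, and its call held in 2 of the 15 fits that left out 1 library (highest adjusted p = 0.152). Ubd, a ubiquitin-like protein induced by inflammatory cytokines and named after its values were seen, ranged from 0.877 to 22.02 (median 5.11) in chow and from 12.8 to 358 (median 122) in DEN/HFD livers, a difference of 1.50 ± 0.28, limma adjusted p = 0.0177. The T cell receptor subunit Cd3e ranged from 0 to 28.8 in chow and from 5.71 to 41.4 in DEN/HFD livers, and Ly6g, the neutrophil antigen, was at 0 in 14 of 15 libraries. The neutrophil list as a whole summed to 5800 normalised counts in chow MCOPPB 1. In the other libraries it summed to between 57.3 (DEN/HFD saline 4) and 874 (DEN/HFD MCOPPB 3). Of 11 tested lymphocyte genes Ccl5 was the only called gene, against 1.32% of all tested genes. The list's median was 0.08, or 0.40 with RIN as a covariate.

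Enzymes of detoxification moved in both directions. Gsta1, a glutathione transferase that is a target of the oxidant sensor NRF2, had normalised counts of 40.8, 44.9 and 166 in chow saline, 21.7, 34.3, 92.7, 133 and 45.9 in chow MCOPPB, 1032, 309, 748 and 13.2 in DEN/HFD saline and 319, 472 and 682 in DEN/HFD MCOPPB livers. It was lowest of all 15 livers in DEN/HFD saline 4 and above every chow liver in the other 6 DEN/HFD livers. Its difference was 1.78 ± 0.43, limma adjusted p = 0.0476, and 2.16 (adjusted p = 0.00036) without saline 4, and the call held in 3 of the 15 fits that left out 1 library. Gm3776 (chr9:78257129-78269166, plus strand), near Gsta1 (chr9:78230656-78242684, plus strand) and named after its values were seen, had the largest rise of all called genes (2.25 ± 0.39, limma adjusted p = 0.0163). Glutathione transferases of the alpha class are close copies of each other, so reads can match more than 1 member. Hmox1, heme oxygenase, averaged 92.2 ± 42.7 in chow and 220 ± 80.9 in DEN/HFD livers, a difference of 0.95 ± 0.21, limma adjusted p = 0.0325. Nqo1, a quinone reductase, averaged 93.9 ± 50.0 in chow and 191 ± 52.5 in DEN/HFD livers, a difference of 0.81 ± 0.18, limma adjusted p = 0.0327. These 3 of 38 tested NRF2 and glutathione genes were called, none was called lower, and 33 differences were positive (median 0.41), against 0.743% called higher and 49.6% positive over all tested genes. Of the 38, 12 were called higher without DEN/HFD saline 4, against 2.41% of all tested genes in that fit. With the replicate block 2 were called higher. None was called by limma with either RIN value, where 31 differences were positive for the first and 34 for the second. Gstm1, an abundant glutathione transferase, averaged 19040 ± 10580 in chow and 39860 ± 19970 in DEN/HFD livers without a call (1.07 ± 0.38, limma adjusted p = 0.159).

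Of 41 tested targets of CAR and PXR, the receptors that sense drugs in the liver, 1 was called higher (Gsta1) and 2 lower, and 20 differences were positive. Over all tested genes, 0.743% were called higher and 0.579% lower. Cyp2c54, a P450 of fatty acid epoxidation, ranged from 1843 to 5361 (median 3642) in chow and from 213 to 3787 (median 1003) in DEN/HFD livers, a difference of -1.92 ± 0.41, limma adjusted p = 0.0296. Within treatments the Cyp2c54 difference was -0.93 in saline and -2.81 in MCOPPB mice. Ces2a, a carboxylesterase, averaged 1625 ± 479.5 in chow and 847 ± 344 in DEN/HFD livers, a difference of -0.98 ± 0.20, limma adjusted p = 0.0233. Reads of Cyp2c genes can match several members of the family, so single members are less certain.

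Several called P450 genes belong to lists of sex-biased liver genes, whose expression follows the pulses of growth hormone, and they are given by treatment. Cyp2c40, a female-biased P450, had normalised counts of 118, 70.0 and 42.2 in chow saline, 378, 1056, 1002, 1145 and 1643 in chow MCOPPB, 15.9, 29.7, 13.7 and 62.2 in DEN/HFD saline and 38.1, 33.9 and 21.5 in DEN/HFD MCOPPB livers. Its difference over both treatments was -2.07 ± 0.39, limma adjusted p = 0.0177, but it was -0.63 ± 0.26 in saline and -3.38 ± 0.33 in MCOPPB mice, which differ (limma adjusted p = 0.0394). The high values were those of chow MCOPPB livers. Cyp2c69, its close paralogue, differed by -1.73 ± 0.37, limma adjusted p = 0.0301, with group means of 17.7 in chow saline and 512 in chow MCOPPB livers. Within treatments its difference was -0.45 in saline and -2.89 in MCOPPB mice. Cyp4a12b, a male-biased P450 that hydroxylates arachidonic acid, was highest in chow saline livers, at 1060 ± 281 (SD, n = 3), and differed by -1.60 ± 0.28, limma adjusted p = 0.0163. It was among the 4 genes called by limma in saline mice. Mup20, a pheromone-binding urinary protein of male liver, had means of 111500 in chow saline, 6033 in chow MCOPPB, 193200 in DEN/HFD saline and 63880 in DEN/HFD MCOPPB livers. Its difference of 2.12 ± 0.44, limma adjusted p = 0.0253 was 0.65 in saline and 3.47 in MCOPPB mice.

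Of 29 tested female-biased genes, 4 were called lower, against 0.579% of all tested genes, and none higher (median -0.36). With RIN as a covariate none was called by limma, 14 of 29 differences were positive and the median was -0.0097. With the replicate block 2 were called lower, at a median of -0.20. In saline mice alone the median was 0.09, and in MCOPPB mice -0.89. Of 43 tested male-biased genes, 1 was called higher and 2 lower, against 0.743% and 0.579% of all tested genes. The median of this list was -0.33 (-0.36 in saline and -0.01 in MCOPPB mice). The other called members were Fmo2, a flavin monooxygenase (-1.06 ± 0.20, limma adjusted p = 0.0177), Lepr, and C8b, a chain of the complement pore (-1.21 ± 0.25, limma adjusted p = 0.0249). Igf1, the main growth hormone target in liver, ranged from 4002 to 11420 (median 5049) in chow and from 4100 to 7882 (median 6823) in DEN/HFD livers, a difference of 0.13 ± 0.23, limma adjusted p = 0.828.

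Igfbp2, a binding protein of insulin-like growth factors, ranged from 2133 to 4284 (median 3179) in chow and from 893 to 2699 (median 1291) in DEN/HFD livers, a log2 difference of -1.22 ± 0.21, limma adjusted p = 0.0163, and the call was lost without DEN/HFD MCOPPB 3 (adjusted p = 0.0703). Igfbp5 differed by -0.92 ± 0.18, limma adjusted p = 0.0225, and Vegfa, the growth factor of endothelium, by -0.98 ± 0.23, limma adjusted p = 0.0438. The Vegfa call held in 5 of the 15 fits that left out 1 library. Slc10a1 (NTCP), which takes up bile acids from blood, averaged 5854 ± 1330 in chow and 3064 ± 846 in DEN/HFD livers, a difference of -0.93 ± 0.17, limma adjusted p = 0.0177, and was named after its values were seen. It was the only called gene of 30 tested genes of bile acid synthesis and transport, against 1.32% of all tested genes. Cyp7a1, the rate-limiting enzyme of bile acid synthesis, ranged from 106 to 1648 (median 561) in chow and from 83.2 to 869 (median 232) in DEN/HFD livers, a difference of -0.80 ± 0.43, limma adjusted p = 0.369. Tef, a clock-controlled transcription factor named after its values were seen, fell from 1025 ± 335 (SD, n = 8) to 508 ± 260 (SD, n = 7), a difference of -1.07 ± 0.20, limma adjusted p = 0.0177. It was the only called gene of 23 tested clock genes, against 1.32% of all tested genes. The median of the clock list was -0.37 over both treatments, 0.0033 in saline and -0.64 in MCOPPB mice. With RIN as a covariate the median was -0.11 over both treatments. The time of day of tissue collection is not given in the sources used here.

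Immediate early genes are the first to be transcribed after stress or growth signals. Jun, a subunit of the AP-1 transcription factor, had normalised counts of 73.3, 21.1 and 106 in chow saline, 59.8, 49.4, 110.4, 51.9 and 73.6 in chow MCOPPB, 280.5, 209.6, 342 and 598 in DEN/HFD saline and 154, 172 and 278 in DEN/HFD MCOPPB livers. The diets did not overlap, and DEN/HFD saline 4 was the highest of all livers. The difference was 1.29 ± 0.21, limma adjusted p = 0.0117, and 1.16 without that library, and the call was lost without DEN/HFD MCOPPB 3 (adjusted p = 0.0549). The Jun promoter is known to bind AP-1 itself through a site of the form TGACATCA. The 150 bases before the RefSeq start hold these letters once, shown in capitals, as do 2.32% of the windows in the table on either strand.
Jun (chr4:95052223-95052372, minus strand): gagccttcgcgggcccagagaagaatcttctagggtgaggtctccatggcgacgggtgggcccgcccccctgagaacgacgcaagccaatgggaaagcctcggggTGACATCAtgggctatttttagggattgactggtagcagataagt

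Jund, another AP-1 subunit, ranged from 238 to 651 (median 343) in chow and from 648 to 2007 (median 926) in DEN/HFD livers, a difference of 1.39 ± 0.22, limma adjusted p = 0.0113 that was called in all 15 fits that left out 1 library. Btg2, an antiproliferative gene that p53 induces, ranged from 0 to 39.8 (median 20.8) in chow and from 49.4 to 118 (median 79.0) in DEN/HFD livers, a difference of 0.91 ± 0.19, limma adjusted p = 0.0249. These 3 of 20 tested immediate early genes were called, against 0.743% of all tested genes called higher, and 18 had a positive difference (median 0.39). With RIN as a covariate none was called by limma and 16 were positive. Egr1 and Atf3 differed by 0.48 ± 0.16 and 0.14 ± 0.14 and were not called. Cebpb, a transcription factor of the acute response named after its values were seen, differed by 1.22 ± 0.26, limma adjusted p = 0.0266.

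Of 30 tested p53 targets, Btg2 and Cdkn1a were called higher, against 0.743% of all tested genes, and none lower. Cdkn1a, the p21 inhibitor of cyclin-dependent kinases, ranged from 0 to 43.4 (median 13.4) in chow and from 12.6 to 195 (median 67.7) in DEN/HFD livers, a difference of 0.96 ± 0.23, limma adjusted p = 0.0491. Its call held in 2 of the 15 fits that left out 1 library (highest adjusted p = 0.155), and the difference was 1.09 without DEN/HFD saline 4. Within treatments the difference was 0.34 in saline and 1.53 in MCOPPB mice. Of 26 tested genes of senescence and its secretory phenotype, Cdkn1a was called higher and Igfbp2, Igfbp5 and Vegfa lower. The shares over all tested genes were 0.743% higher and 0.579% lower. Cdkn2a, which encodes the senescence marker p16, was too low to be tested, at 0 to 8.02 normalised counts in chow and 0 to 4.80 in DEN/HFD livers. Mki67, the proliferation antigen Ki-67, ranged from 0 to 24.1 (median 12.1) in chow and from 4.20 to 92.4 (median 49.2) in DEN/HFD livers, a difference of 0.92 ± 0.16, limma adjusted p = 0.0177. It was the only called gene of 21 tested cell cycle genes, against 1.32% of all tested genes. Of the 21, 16 had a positive difference (median 0.27).

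Of 37 tested genes of stellate cells and matrix, Col1a2, a chain of type I collagen, was the only called gene, against 1.32% of all tested genes. Of the 37 differences, 32 were positive (median 0.26). With RIN as a covariate 23 of the 37 were positive, at a median of 0.13, and none was called by limma. Col1a2, named after its values were seen, ranged from 17.8 to 72.7 (median 40.1) in chow and from 26.3 to 326 (median 166) in DEN/HFD livers, a difference of 1.06 ± 0.24, limma adjusted p = 0.037, with a call in 3 of the 15 fits that left out 1 library. Col1a1 ranged from 29.1 to 74.5 (median 41.0) in chow and from 11.6 to 401 (median 162) in DEN/HFD livers, a difference of 1.11 ± 0.30, limma adjusted p = 0.0724, and Col3a1 differed by 0.73 ± 0.26, limma adjusted p = 0.163. DEN/HFD saline 4 was the lowest DEN/HFD liver for all 3 collagen genes. Without it the limma adjusted p was 0.00197 for Col1a1 and 0.0286 for Col3a1, given as a description only. Acta2, the actin of activated stellate cells, differed by -0.35 ± 0.21 and was not called. Lrat, which stores retinol in stellate cells, averaged 125 ± 40.2 in chow and 184 ± 35.5 in DEN/HFD livers, a difference of 0.42 ± 0.17, limma adjusted p = 0.2.

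Of 14 tested cholangiocyte and ductular genes, 2 were called higher and 1 lower, against 0.743% and 0.579% of all tested genes. Anxa2, a membrane-binding annexin, ranged from 70.9 to 211 (median 111) in chow and from 108 to 1166 (median 562) in DEN/HFD livers, a difference of 1.71 ± 0.31, limma adjusted p = 0.0177, and 1.97 without DEN/HFD saline 4. Tm4sf4, a tetraspanin-like membrane protein, differed by 0.84 ± 0.17, limma adjusted p = 0.0249, and Onecut1, a factor of biliary and hepatocyte development, by -0.84 ± 0.19, limma adjusted p = 0.037. The bile duct keratin Krt19 was at 2.94 to 21.8 in chow and 0 to 10.8 in DEN/HFD livers. Of 27 tested tumour and oncofetal genes, Gpc1 and Gsta1 were called, both higher, against 0.743% of all tested genes. Afp, the fetal serum protein that marks hepatocellular tumours, and Gpc3, a glypican that marks them, were too low to be tested. Afp ranged from 0 to 20.4 (median 2.36) in chow and from 5.39 to 29.7 (median 9.49) in DEN/HFD livers and Gpc3 from 2.30 to 66.6 (median 18.6) in chow and from 0 to 11.9 (median 4.51) in DEN/HFD livers.

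Of 41 tested genes of fatty acid oxidation and PPARalpha targets, Fabp2 was called higher (0.93 ± 0.19, limma adjusted p = 0.0249) and none lower (median -0.01). G6pc, the last enzyme of glucose release, differed by 0.25 ± 0.26, limma adjusted p = 0.677, and 2 of 28 glucose and insulin genes were called, Slc2a1 (GLUT1, 0.58 ± 0.12, limma adjusted p = 0.0266) and Igfbp2. Of 32 tested pericentral hepatocyte genes, Glul (glutamine synthetase, 0.80 ± 0.14, limma adjusted p = 0.0163) and Slc13a3 (0.67 ± 0.16, limma adjusted p = 0.0491) were called higher, and of 33 periportal genes Igfbp2 was called lower. The Slc13a3 call held in 2 of the 15 fits that left out 1 library, and that of Glul in 14. Over all tested genes, 0.743% were called higher, 0.579% lower and 1.32% in either direction. None of 73 tested nuclear genes of oxidative phosphorylation was called by limma, though 60 differences were positive at a median of 0.11, or 0.37 with RIN as a covariate. Of these genes, all but G6pc and Igfbp2 were named after their values were seen. Of 15 mitochondrially encoded genes, 3 were positive and none was called by limma (median -0.20, or -0.082 with RIN as a covariate).

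**Figure D3:**
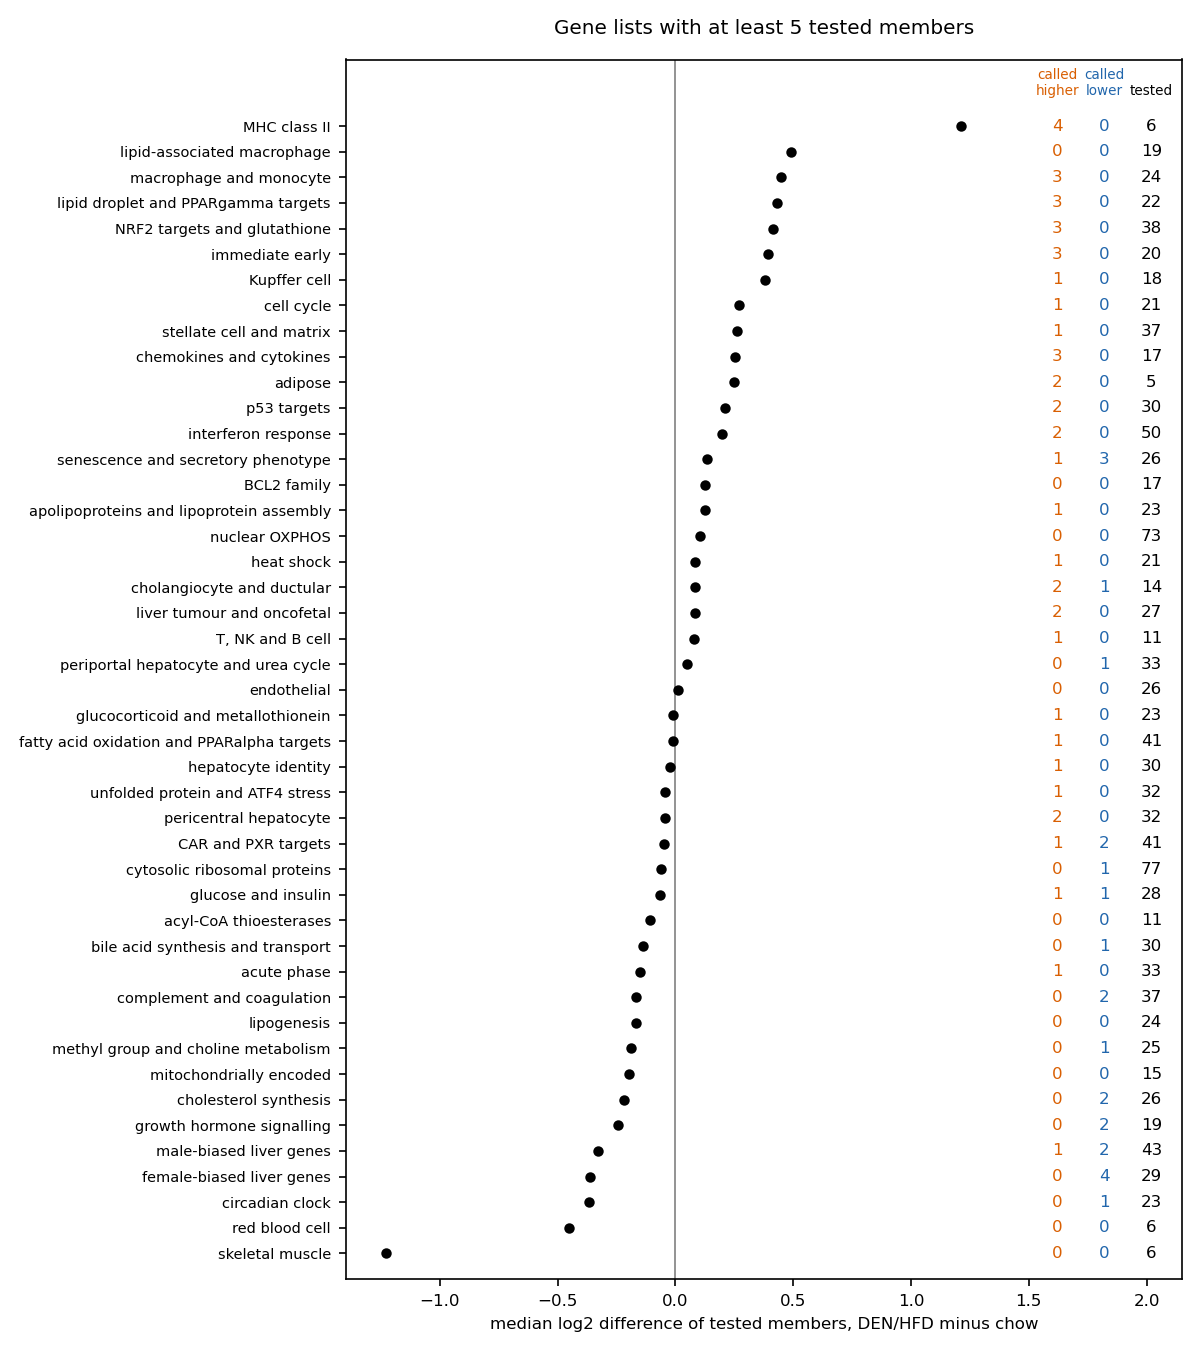
Median log2 difference between DEN/HFD and chow livers of the tested members of 45 gene lists with at least 5 tested members, with the numbers of members called higher (orange), called lower (blue) and tested (black). The MHC class II list stands at 1.21 with 4 of 6 members called, and skeletal muscle at -1.23 with none called.

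DEN/HFD saline 4 was set against the chow range for the called genes. Of the 86 genes called higher, 29 lay above the highest chow liver in this animal, against 67 to 84 in the other 6 DEN/HFD livers. Of the 67 called lower, 22 lay below the lowest chow liver, against 46 to 60. The animal was near chow for Cidec (20.1), Cidea (4.25), Anxa2 (108) and Apoa4 (3738), and within the range of the other DEN/HFD livers for Dio1 (1105), Mup20 (219300) and Jund (1829). It had the lowest mitochondrial share of all libraries (12.01%) and a depth of 18200000 reads. The genes were called with this library in the fit, so these counts describe and do not test its position.

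**Figure D4:**
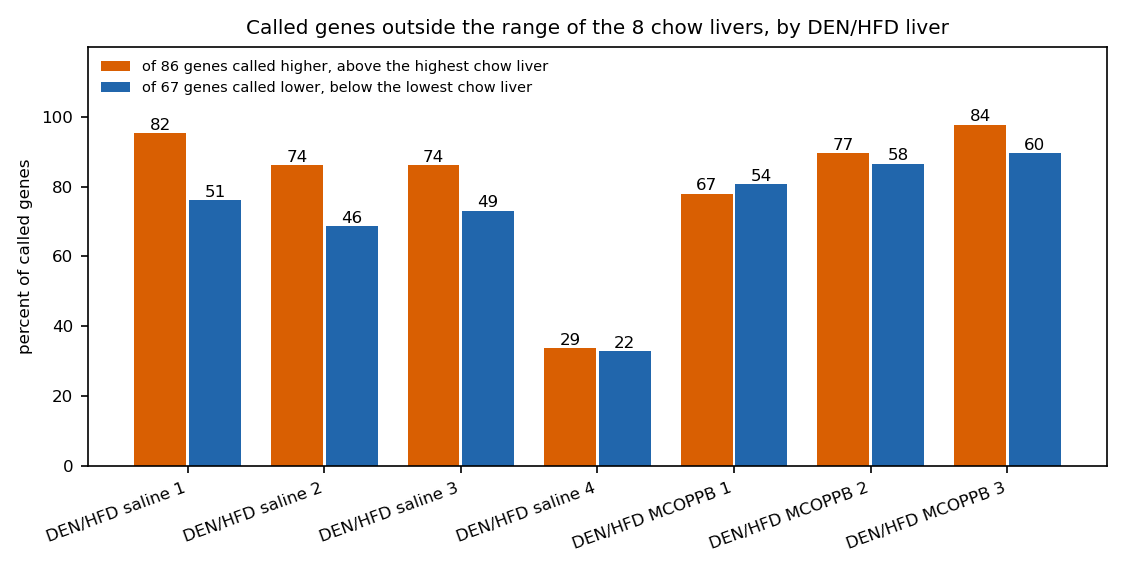
Percent of the 86 genes called higher that lay above the highest of the 8 chow livers (orange) and of the 67 called lower that lay below the lowest (blue), for each DEN/HFD liver, with the number of genes above each bar. DEN/HFD saline 4 has 29 and 22 genes outside the chow range, and the other 6 livers have 67 to 84 and 46 to 60.

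The diets were also compared within each treatment, in 2 sets of mice that share no library. In the 8 MCOPPB mice 135 genes were called (1.17% of those tested), and in the 7 saline mice 4 (0.0346%), with 1010 genes (8.73%) at an unadjusted p under 0.05. Of the 135 genes, 110 (81.5%) had the same sign in saline mice, against 58.4% of all tested genes, and 26 also had an unadjusted p under 0.05 there. Their median size was 1.19 in MCOPPB mice, where they were selected, and 0.30 in saline mice when signed by the MCOPPB direction. Of the 4 genes called in saline mice (Cyp2b9, Ttn, Gm8430 and Cyp4a12b), 2 had the same sign in MCOPPB mice. Ttn encodes the muscle protein titin, and the saline set holds chow saline 3, where skeletal muscle transcripts summed to 4562. A share of muscle RNA in the Ttn call was not tested. Of the 153 genes called over both treatments, 43 were called in MCOPPB mice alone and 1 in saline mice alone. Group sizes differ (3 against 5 in MCOPPB mice, 4 against 3 in saline mice), and the saline set holds DEN/HFD saline 4.

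The difference between the diet effects itself was tested as an interaction, and 8 of 11568 genes (0.0692%) were called, 3 (0.0259%) with a more positive and 5 (0.0432%) with a more negative diet difference in MCOPPB than in saline mice, with 683 genes (5.9%) at an unadjusted p under 0.05. The count lay between 2 and 12 when 1 library was left out. The largest interaction was that of Cyp2b9, a female-biased P450, which averaged 16.3 normalised counts in chow saline, 3296 in chow MCOPPB, 363 in DEN/HFD saline and 1190 in DEN/HFD MCOPPB livers. Its diet difference was 2.57 ± 0.33 in saline and -1.37 ± 0.24 in MCOPPB mice (limma adjusted p of the difference = 0.00046), and 0.51 ± 0.50 over both treatments. Elovl3, an elongase of very long chain fatty acids, differed by -1.06 ± 0.23 in saline and 2.18 ± 0.27 in MCOPPB mice (adjusted p = 0.000535). Cyp2b13, a paralogue of Cyp2b9, was at 0 in all 3 chow saline livers, at a mean of 249 in chow MCOPPB livers, and differed by 0.85 ± 0.19 in saline and -1.08 ± 0.25 in MCOPPB mice. Usp2, a clock-controlled ubiquitin protease, fell in MCOPPB mice (-2.25 ± 0.22) and was at 0.0033 ± 0.32 in saline mice. Dclre1a, a DNA crosslink repair nuclease, Dtx4, an E3 ubiquitin ligase, and Gm43302 also took opposite signs in both treatments, with interactions of -1.97, 1.47 and 2.56. The eighth gene, Cyp2c40, kept its sign.

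**Figure D5:**
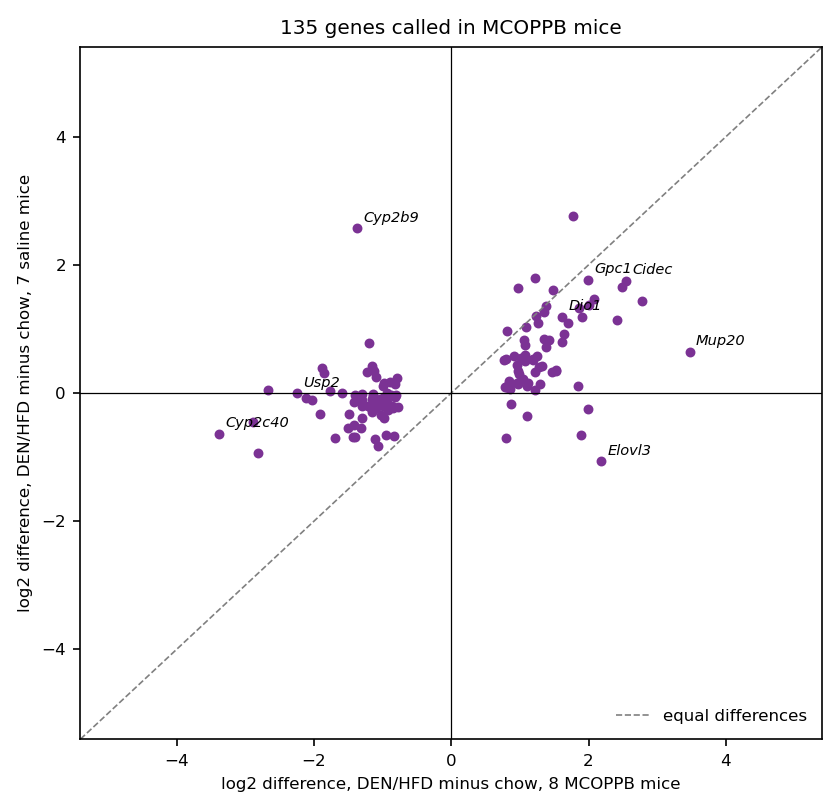
Log2 difference between DEN/HFD and chow livers in the 7 saline mice (vertical axis) against that in the 8 MCOPPB mice (horizontal axis) for the 135 genes called in MCOPPB mice; the dashed line marks equal differences. Of the points, 110 have the same sign on both axes, and Cyp2b9 and Elovl3 have opposite signs.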

How the data were processed

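RNA of 15 mouse livers was sequenced as single reads of 75 nt from directional libraries of 250 ng RNA, per the labels' protocols. Per the submitters' processing notes, Trimmomatic, STAR 2.7.0e, HTSeq and DESeq2 were used with GRCm38 (mm10), and their settings were not given in the sources used here. The deposited values are variance-stabilised log2 levels made by the authors, with a lowest value of 5.49 that stands for 0 reads. They were inverted to normalised counts. At most 45.1% of low values per library were whole reads (within 0.01), so no count test was run and depths are estimates.

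Genes at least 1 log2 above the lowest value (22.5 normalised counts) in at least 3 libraries were tested with limma 3.58.1 (R 4.3.3). A gene could pass this filter through the levels of 1 diet alone. The model had diet and treatment as additive terms, with 12 residual degrees of freedom, eBayes with a trend and Benjamini-Hochberg adjustment. Errors of differences are moderated SE and those of levels are SD. The scripts were tested on simulated data. Groups came from sample titles, and p-values measure the spread between these animals. Symbols and coordinates were taken from GENCODE M21, in which 54107 of 54281 IDs were found, and promoters from RefSeq (GRCm38.p6). The strand setting of the counting is not given, so antisense genes may share reads.

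The gene lists and the rule for named genes were chosen with earlier results of these data known. The rule took the 12 largest rises and falls among called genes without overlap between diets, for each list with at least 3 calls the up to 4 members with the smallest p, the 6 smallest p of the interaction, and 17 fixed genes (Cdkn1a, Cdkn2a, Afp, Gpc3, Trem2, Cd36, Cidec, Cidea, Scd1, Srebf1, Col1a1, Col3a1, Mki67, Cyp7a1, Igf1, G6pc and Pparg). It gave 72 genes, of which 69 were tested and 52 called. The 47 lists were described by counts and medians only. Alternatives changed the filter, scaling, transformation, weights, variance trend, covariates, model, block and samples.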

Additional observations from a re-analysis of the deposited data

Results flagged for a closer look

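A sample lay far from the others of its diet, on the deposited log2 scale, in 13 of the 138 pairs of a named gene and a diet (9.42%). The nominal rate of the rule is about 1 in 20 for independent pairs. These pairs share livers, and many genes were named by their values, so the share found cannot be weighed against it. In DEN/HFD saline 4, Tmem86a, Gsta1, Nqo1, Cd68 and Cd36 were lower than in the other 6 DEN/HFD livers. The levels were Tmem86a at 7.16 in DEN/HFD saline 4 (others 7.65 to 7.95), Gsta1 at 6.26 in DEN/HFD saline 4 (others 8.62 to 10.13), Nqo1 at 7.37 in DEN/HFD saline 4 (others 8.01 to 8.36), Cd68 at 6.88 in DEN/HFD saline 4 (others 7.66 to 8.15) and Cd36 at 9.01 in DEN/HFD saline 4 (others 10.87 to 11.51). Rpl3 lay apart in another DEN/HFD liver, at 10.29 in DEN/HFD MCOPPB 2 (others 10.75 to 11.04). Among the chow livers, the levels were Osbpl3 at 7.32 in chow saline 1 (others 6.30 to 6.73), Tmem86a at 6.40 in chow saline 3 (others 6.77 to 7.09), Tpgs1 at 6.40 in chow saline 3 (others 6.91 to 7.30), 2210418O10Rik at 9.33 in chow saline 2 (others 8.65 to 8.95), Cidea at 7.25 in chow saline 1 (others 5.49 to 6.19), Hmox1 at 6.13 in chow saline 2 (others 7.31 to 7.94) and Cd36 at 8.36 in chow saline 2 (others 9.59 to 10.70). Of these 7, 3 concern chow saline 2, the library with the fewest genes above the lowest value (13863), and 2 concern chow saline 3.

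The diet difference in MCOPPB mice minus that in saline mice was called by limma in 8 genes, all named in the account of the interaction above. On the log2 scale it was -2.74 for Cyp2c40, -1.97 for Dclre1a, -2.25 for Usp2, 3.24 for Elovl3, 1.47 for Dtx4, -1.93 for Cyp2b13, -3.93 for Cyp2b9 and 2.56 for Gm43302.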

How the results depend on the processing

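Settings that moved the 153 calls between the diets by more than 1.5 times gave 56 with no filter on low values (23148 genes tested), 88 with a stricter filter (6404 genes), 392 with array weights, 81 with treatment left out of the model and 4 in saline samples only. A RIN covariate gave 0 calls by limma (1054 genes at an unadjusted p under 0.05). Covariates added after seeing the data gave 81 (second RIN value) and 530 (mitochondrial share). Leaving out 1 library gave 6 to 460. The replicate block gave 69, of which 60 were among the 153. Since number 5 occurs only in chow MCOPPB, the block takes that liver out of the diet difference. With the block and without chow MCOPPB 5 alike, the difference was 1.84 for Gpc1 and 1.31 for Dio1. Calls lost with the block therefore do not show a batch. In deviations from the group means, 5 of 19 same-numbered pairs of livers correlated above 0.1, against 17 of 64 pairs with other numbers. The mean correlations were -0.0273 and 0.0084. No pairing by number was seen, though groups this small cannot show its absence. Quantile normalisation, centring, log2(normalised count + 1), no trend and the mean of the differences within both treatments gave 144 to 157 calls. In each of these settings, 136 to 148 of the calls were among the 153. MCOPPB samples only gave 135 calls, a similar count, but 43 of them were among the 153. Centring changed the split to 95 higher and 56 lower. All 153 genes, which were selected in these same livers, kept their direction in every setting that tested them. Of the list medians, 10 moved beyond the spread between replicates with RIN as a covariate and 11 on log2(normalised count + 1). The 8 interaction calls became 2 with no filter, 2 with the stricter filter, 4 on log2(normalised count + 1), 3 with RIN, 2 with the second RIN value, 4 with the mitochondrial share, 2 with the replicate block and 2 to 12 without 1 library.

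The direction over both treatments turned for named genes that were not called. With RIN it became -0.43 for Elovl3, 0.28 for Cyp2b13, -0.89 for Gm43302, 0.60 for Dclre1a, 0.092 for Cyp7a1, -0.46 for G6pc and -0.17 for Dtx4. In saline samples it was -1.06 for Elovl3, 0.85 for Cyp2b13, -0.66 for Gm43302, 0.77 for Dclre1a, 0.39 for Cyp7a1, -0.040 for Igf1, -0.10 for G6pc, 0.0033 for Usp2 and -0.37 for Dtx4. In MCOPPB samples it was -1.37 for Cyp2b9 and -0.19 for Scd1. Without treatment in the model Cyp2b9 was at -0.20, and on log2(normalised count + 1) Cyp2b13 was at 1.08. Scd1 lay between -0.15 and -0.10 when 1 of 4 libraries was left out (chow saline 2 or MCOPPB 1, DEN/HFD saline 1 or MCOPPB 3). The causes were not tested. Voom on recovered reads was not run.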
